A study of Mus musculus with 8 samples.

Results

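Amino acid and taurine transporters are membrane proteins of the solute carrier (SLC) families, and 10 of them, chosen by gene symbol, were followed in macrophages that lack PHGDH, the first enzyme of the serine synthesis pathway. All 10 were among the 18635 genes of the deposited table. The cells were bone marrow-derived macrophages (BMDMs), which had spent 24 h in medium conditioned by AE17, a murine mesothelioma line, before RNA-seq, and are called TEMs here. There were 4 libraries of *Phgdh* fl/fl TEMs and 4 libraries of *Phgdh* fl/fl *Cx3cr1*-Cre TEMs, called PHGDH-deficient TEMs. Both groups carry the floxed *Phgdh* alleles, come from littermates on a C57BL/6 background and from marrow of mice aged 6 to 8 weeks, and received the same medium. The PHGDH-deficient group also carries Cre at *Cx3cr1* on a single allele, and the controls carry none, so that loss of *Phgdh* and the presence of the Cre allele cannot be told apart.

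Macrophages make part of their serine from glucose and import the rest, together with essential amino acids, glutamine and cystine, through carriers with overlapping substrates. ASCT1 (*Slc1a4*) and ASCT2 (*Slc1a5*) exchange small neutral amino acids, serine among them. The CD98 heavy chain (*Slc3a2*) carries no substrate itself and brings light chains such as LAT1 (*Slc7a5*), y+LAT1 (*Slc7a7*) and xCT (*Slc7a11*) to the cell surface. CAT1 (*Slc7a1*) imports arginine and lysine, SNAT1 and SNAT2 (*Slc38a1*, *Slc38a2*) take up neutral amino acids with sodium, *Slc38a9* senses arginine at the lysosome for mTORC1, and TauT (*Slc6a6*) concentrates taurine, an osmolyte that many cells hold at a high level.

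Values are normalized counts, that is, reads counted per gene divided by a size factor per library. The genotypes were compared by limma, on log2(normalized count + 1), in the 13629 genes whose mean reached 10, and p-values were adjusted after Benjamini-Hochberg over all of these genes. A log2 fold change is given for PHGDH-deficient over *Phgdh* fl/fl TEMs, and a gene is said to have risen or fallen where its adjusted p was under 0.05. The libraries held between 38219563 and 47027420 reads on genes. *Phgdh* itself was between 104.9 and 128.9 normalized counts in *Phgdh* fl/fl TEMs and between 14.2 and 35.3 in PHGDH-deficient TEMs, and *Cx3cr1* was 1075 ± 94.2 and 660 ± 32.2 (SD, n = 4 each). All 6 macrophage markers were in the table, with a sum between 313293 and 318184 in *Phgdh* fl/fl TEMs and between 297220 and 301193 in PHGDH-deficient TEMs. Of these, 3 fell: *Fcgr1* (log2 fold change -0.40, limma adjusted p = 7.4e-12), *Itgam* (-0.19, limma adjusted p = 7.0e-06) and *Adgre1* (-0.084, limma adjusted p = 0.00558). *Csf1r*, *Cd68* and *Mertk* did not pass. Of 7 neutrophil markers 1 was in the table (*S100a8*), between 466.7 and 574.7 against 575.7 and 631.3, and it rose (log2 fold change 0.23, limma adjusted p = 0.0044). The sums were at most 38.6 for dendritic cell, 4.13 for T, B and NK cell and 46.7 for stromal and mesothelial markers. No mast cell, basophil or erythroid marker was found. Genes were looked up by symbol, and 3602 of the 18635 genes carried none, so a gene not found is not shown to be absent. The part of these differences in the values of the transporters was not tested, and in bulk libraries fewer cells of a type and less RNA per cell cannot be told apart.

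Of the 10 transporters, *Slc6a6*, *Slc38a1* and *Slc3a2* rose, *Slc7a5* and *Slc7a1* fell, and *Slc1a4*, *Slc1a5*, *Slc7a7*, *Slc38a2* and *Slc38a9* did not pass the test. These 5 of 10 calls stand beside 41% of all tested genes, with 3 higher beside 20.8% and 2 lower beside 20.3%. The share is near that of the whole table, so the count says little about transporters as a class. The median log2 fold change of the 10 was 0.061, beside -0.0018 over all tested genes. In 4 of the 10 the groups were apart with no overlap, beside 36.7% of all tested genes, with 3 higher beside 18.4% and 1 lower beside 18.2%. The differences were small apart from that of *Slc7a5*, which exceeded 92.1% of the tested genes in absolute log2 fold change. Among genes that passed the test the median absolute log2 fold change was 0.19.

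**Figure D1:**
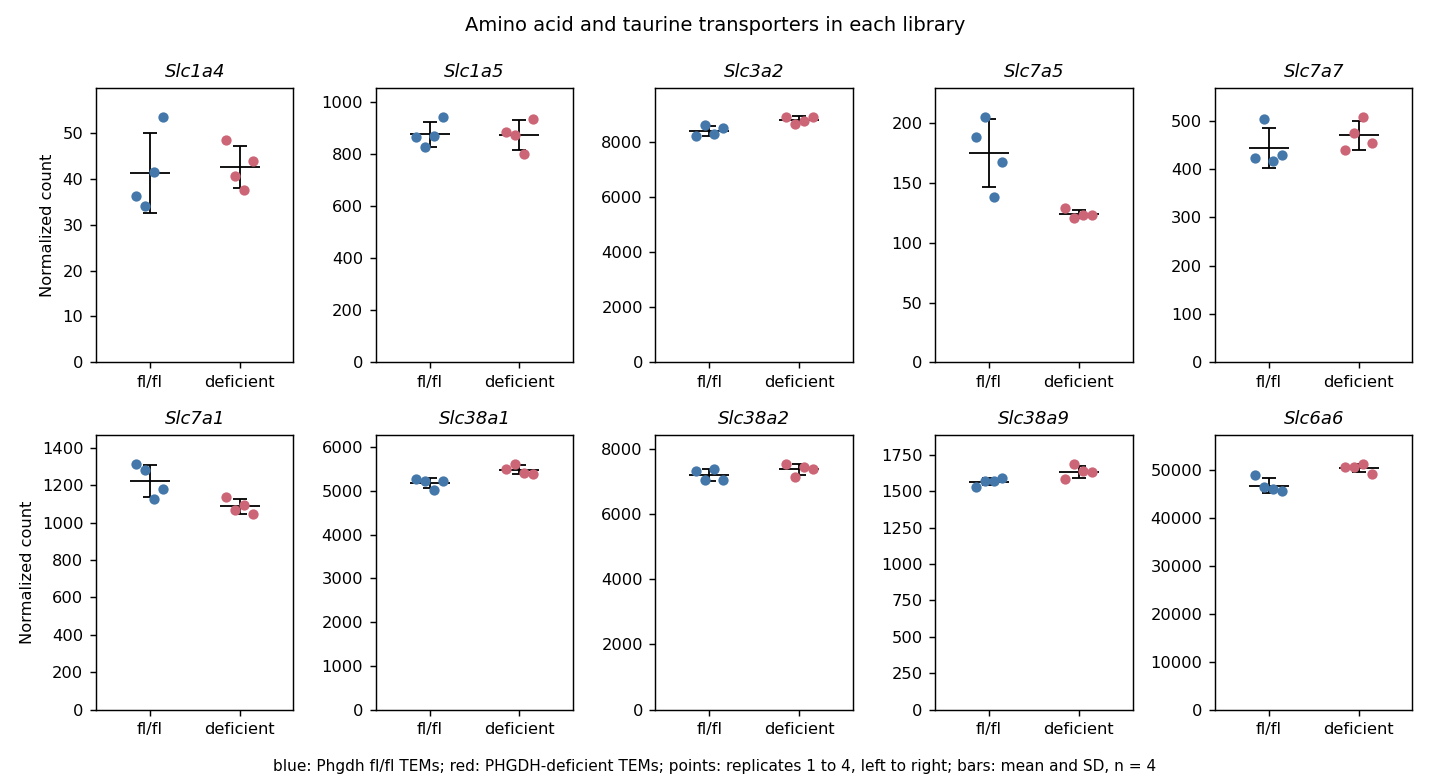
Normalized count (vertical axis of each panel, from 0) of the 10 transporters in the 4 libraries of *Phgdh* fl/fl TEMs (blue) and the 4 of PHGDH-deficient TEMs (red), with points in the order of replicates 1 to 4 and bars for the mean and SD. The groups lie apart for *Slc3a2*, *Slc7a5*, *Slc38a1* and *Slc6a6*, and they overlap for the other 6 transporters.

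The levels spanned a wide range. Divided by the length of the annotated exons, *Slc6a6* stood first with 5525 ± 176 normalized counts per kb in *Phgdh* fl/fl TEMs and 5957 ± 103 in PHGDH-deficient TEMs (SD, n = 4 each). *Slc3a2* followed with 2385 ± 51.6 and 2498 ± 34.0 per kb. Next in *Phgdh* fl/fl TEMs came *Slc38a2* with 817 ± 20.3, *Slc38a1* with 301 ± 6.54 and *Slc1a5* with 210.0 ± 11.6 normalized counts per kb. *Slc7a7* had 134 ± 12.3 per kb, *Slc7a1* 106 ± 7.53, *Slc38a9* 93.8 ± 1.55, *Slc7a5* 47.2 ± 7.76 and *Slc1a4* 10.5 ± 2.21. In *Phgdh* fl/fl TEMs the range of each gene lay apart from that of the next in this order. In PHGDH-deficient TEMs the order was the same but for *Slc38a9* (97.9 ± 2.49 per kb) and *Slc7a1* (94.4 ± 3.43 per kb), which changed places and overlapped. Levels per kb depend on the transcripts used, and *Slc38a1* and *Slc38a9* have long annotated exons of 17236 and 16704 bases.

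The CD98 heavy chain and a light chain that it carries differed between the genotypes in opposite directions. *Slc3a2* (ENSMUSG00000010095, mm10 chromosome 19, 8706882 to 8723369, minus strand) had 8229, 8611, 8295 and 8525 normalized counts in the libraries of *Phgdh* fl/fl TEMs and 8917, 8663, 8774 and 8905 in those of PHGDH-deficient TEMs. Every PHGDH-deficient library lay above every control, though the step between the groups was narrow. The log2 fold change was 0.067 with a standard error of 0.023 (limma adjusted p = 0.0241), a ratio of the means of 1.05. The call rested on single libraries, since the adjusted p was 0.0678 without *Phgdh* fl/fl replicate 3, 0.0659 without PHGDH-deficient replicate 1 and 0.0684 without PHGDH-deficient replicate 4.

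*Slc7a5* (chromosome 8, 121881150 to 121907694, minus strand) encodes LAT1, the exchanger that imports leucine and other large neutral amino acids. Its normalized counts were 188.7, 205.2, 138.5 and 167.9 in *Phgdh* fl/fl TEMs and 129.4, 120.6, 123.0 and 123.5 in PHGDH-deficient TEMs. The groups did not overlap, and the control libraries were far more spread (SD 28.8) than the PHGDH-deficient ones (SD 3.75). *Slc7a5* fell by 0.48 on the log2 scale with a standard error of 0.11 (limma adjusted p = 0.00138), to 0.709 of the control mean. The adjusted p stayed between 0.000136 and 0.00851 with each library left out in turn, and the log2 fold change was -0.49 within replicates 1 and 4 and -0.47 within replicates 2 and 3. It was the most changed of the 10 genes and among the least abundant, with between 115 and 223 reads per library.

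*Slc7a7* (chromosome 14, 54369442 to 54417780, minus strand) encodes y+LAT1, which exports arginine and lysine in exchange for neutral amino acids and is a light chain of the same heavy chain. It had 423, 503.5, 415.5 and 428.4 normalized counts in *Phgdh* fl/fl TEMs and 439.9, 474.9, 507.3 and 454.2 in PHGDH-deficient TEMs, and the groups overlapped. The log2 fold change was 0.086 with a 95% interval from -0.052 to 0.22 (limma adjusted p = 0.32), an interval that holds the log2 fold change of *Slc6a6*. The exons of *Slc7a7* share 232 bases with those of *Oxa1l* on the other strand, and whether the counting used strand is not given in the sources used here. The ratio of *Slc7a5* to *Slc7a7* normalized counts within a library was 0.395 ± 0.0469 in *Phgdh* fl/fl TEMs and 0.266 ± 0.0226 in PHGDH-deficient TEMs (SD, n = 4 each). In each of the 4 PHGDH-deficient libraries it was below each of the controls, a log2 difference of -0.57 (exact two-sided permutation test, p = 0.0286, the smallest that 4 against 4 allows). Adjusted over the 3 ratios compared, the exact permutation p was 0.0857 and did not pass. That is the lowest adjusted value that a single ratio at the smallest p can reach by itself. The adjusted test could therefore not decide for this ratio.

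Other light chains of CD98 in the table were *Slc7a6*, *Slc7a8* and *Slc7a11*. *Slc7a6* and *Slc7a8* fall outside the rule for named genes and were added, after their values were seen, for the heavy chain they share. *Slc7a11* (xCT), which imports cystine in exchange for glutamate, rose from 5587 ± 342 to 8747 ± 104 (SD over 4 libraries) in normalized counts, 0.65 on the log2 scale (limma adjusted p = 1.6e-12). *Slc7a8* (LAT2), a carrier of neutral amino acids, fell from 3129 ± 149 to 2569 ± 13.1 (log2 fold change -0.28, limma adjusted p = 3.3e-07). *Slc7a6* (y+LAT2) did not pass (log2 fold change 0.068, limma adjusted p = 0.149). Summed per kb of exon over the 5 light chains, *Slc7a5* made up 3.24% ± 0.414 in *Phgdh* fl/fl TEMs and 2.13% ± 0.0815 in PHGDH-deficient TEMs, and *Slc7a7* 9.18% ± 0.576 and 8.98% ± 0.456. The share of *Slc7a11* was 27.6% ± 1.29 and 39.9% ± 0.307, and that of *Slc7a8* 43.0% ± 0.923 and 32.6% ± 0.345 (SD, n = 4 each). On this scale the most abundant light chain was *Slc7a8* in controls and *Slc7a11* in PHGDH-deficient TEMs. That order depends on the annotated exon lengths, 13922 bases for *Slc7a11* and 5005 for *Slc7a8*. In normalized counts not divided by length, *Slc7a11* was above *Slc7a8* in both genotypes. The summed light chains per heavy chain were 0.61 ± 0.0247 and 0.63 ± 0.0133, with ranges that overlapped. These shares describe the libraries and were not tested.

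**Figure D2:**
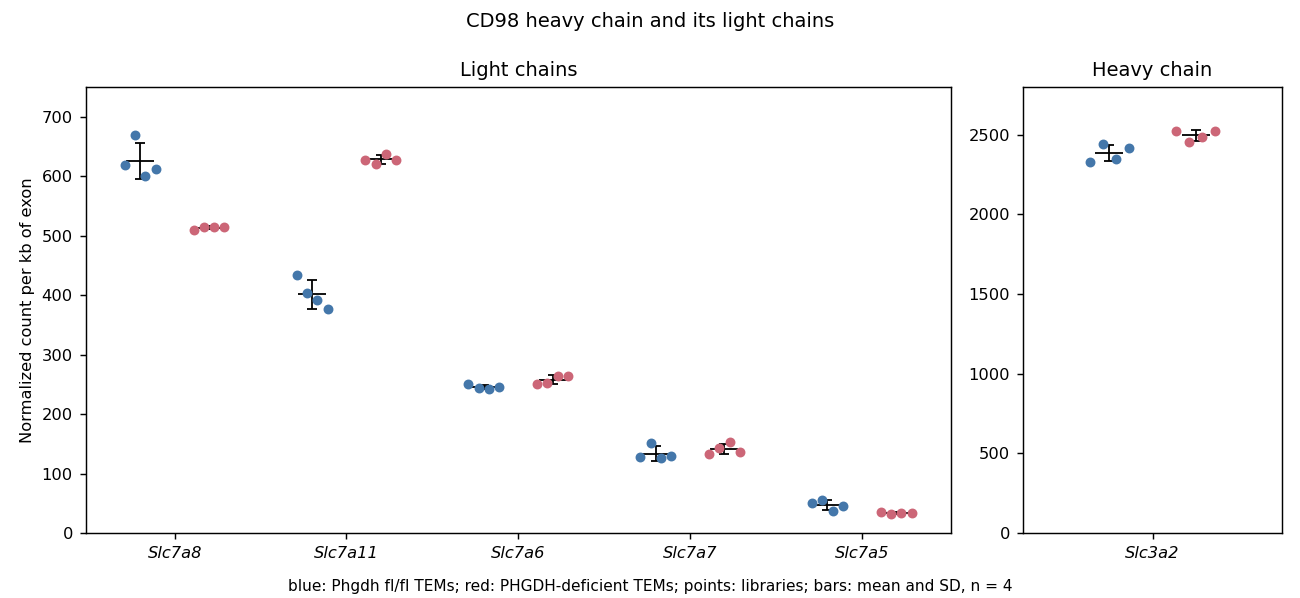
Normalized count per kb of annotated exon (vertical axes, from 0) of the light chains of CD98 (left) and of the heavy chain *Slc3a2* (right) in the 4 libraries of *Phgdh* fl/fl TEMs (blue) and of PHGDH-deficient TEMs (red), with bars for the mean and SD. On this scale, which depends on the annotated exon lengths, *Slc7a11* and *Slc7a8* change rank between the genotypes, while *Slc7a5* is the lowest light chain in both.

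Genes of amino acid import are known to be induced through ATF4 at composite C/EBP-ATF sites, whose core letters are TGATGNAA. The 250 bases before the start of transcription were taken from RefSeq (GRCm38.p6, the assembly also called mm10), and 6 of the 10 transporters were matched (*Slc1a4*, *Slc3a2*, *Slc7a1*, *Slc7a7*, *Slc38a2* and *Slc38a9*), with 11 annotated starts. *Slc1a5*, *Slc7a5*, *Slc38a1* and *Slc6a6* were not matched. The letters, searched on both strands, stood before 2 of the 11 starts, both of *Slc7a7*, and before 3.45% of the 32851 starts of the table. The stretches below, 5′ to 3′ on the strand of the gene, are those of a transporter that rose (*Slc3a2*), one that fell (*Slc7a1*), one that did not pass (the first start of *Slc7a7*) and of *Slc7a11*, the partner of *Slc3a2* with the largest rise, and capitals mark the matching letters.
Slc3a2, chr19:8713898-8714147, minus strand: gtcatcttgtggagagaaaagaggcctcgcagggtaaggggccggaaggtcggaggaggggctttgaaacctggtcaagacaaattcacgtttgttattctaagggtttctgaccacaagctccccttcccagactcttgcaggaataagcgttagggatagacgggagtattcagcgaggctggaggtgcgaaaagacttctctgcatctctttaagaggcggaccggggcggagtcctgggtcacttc
Slc7a1, chr5:148399905-148400154, minus strand: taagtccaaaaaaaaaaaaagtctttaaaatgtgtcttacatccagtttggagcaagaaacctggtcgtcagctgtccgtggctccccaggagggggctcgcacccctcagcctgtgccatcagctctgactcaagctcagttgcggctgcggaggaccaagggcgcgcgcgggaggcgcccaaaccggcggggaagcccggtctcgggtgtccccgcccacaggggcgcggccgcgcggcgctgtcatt
Slc7a7, chr14:54417945-54418194, minus strand: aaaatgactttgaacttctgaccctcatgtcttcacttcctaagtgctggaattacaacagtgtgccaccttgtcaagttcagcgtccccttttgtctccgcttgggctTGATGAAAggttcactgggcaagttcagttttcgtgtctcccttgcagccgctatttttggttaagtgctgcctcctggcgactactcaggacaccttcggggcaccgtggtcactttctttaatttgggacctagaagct
Slc7a11, chr3:50443614-50443863, minus strand: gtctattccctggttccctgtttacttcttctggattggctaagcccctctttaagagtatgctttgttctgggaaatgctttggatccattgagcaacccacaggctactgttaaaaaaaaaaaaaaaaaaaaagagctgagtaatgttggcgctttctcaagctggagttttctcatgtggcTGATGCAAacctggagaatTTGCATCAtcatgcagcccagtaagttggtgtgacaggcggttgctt
The stretch of *Slc7a11* holds the letters on both strands, beginning 66 and 47 bases before the start, and at least 2 matches were found before 0.0396% of all starts. That of *Slc7a7* holds a match beginning 141 bases before the start, and those of *Slc3a2* and *Slc7a1* hold none in this window. Bases after the start, in exons or introns, were not searched. A stretch without the letters therefore does not show that the gene lacks such a site. The start used for *Slc3a2* lies inside the annotated gene, which reaches to 8723369, so the bases before the outer end of that gene were not searched. A match describes the letters only, and no binding was measured.

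*Slc7a1* (chromosome 5, 148327410 to 148399904, minus strand), the arginine and lysine importer CAT1, fell. Its normalized counts were 1315, 1280, 1128 and 1179 in *Phgdh* fl/fl TEMs and 1140, 1070, 1096 and 1047 in PHGDH-deficient TEMs. A single control library, replicate 3, lay below the highest PHGDH-deficient library, and the rest of the controls lay above. The gene fell by 0.17 on the log2 scale with a standard error of 0.046 (limma adjusted p = 0.00562), and the adjusted p stayed between 0.00121 and 0.0261 with each library left out in turn.

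The pair of sodium-coupled carriers *Slc38a1* and *Slc38a2* lie 44.5 kb apart on chromosome 15, both on the minus strand, at 96571418 to 96642913 and at 96687392 to 96699730. *Slc38a1* (SNAT1) had 5269, 5235, 5020 and 5219 normalized counts in *Phgdh* fl/fl TEMs and 5506, 5611, 5419 and 5384 in PHGDH-deficient TEMs, with no overlap. The log2 fold change was 0.080 with a standard error of 0.025 (limma adjusted p = 0.014). The adjusted p rose to 0.0848 with quantile normalization, to 0.0588 without *Phgdh* fl/fl replicate 3 and to 0.0609 without PHGDH-deficient replicate 2, so that this small rise depended on those choices. *Slc38a2* (SNAT2), the carrier best known for its induction when amino acids run short, lay between 7053 and 7393 in controls and between 7141 and 7549 in PHGDH-deficient TEMs. Its log2 fold change was 0.033 with a 95% interval from -0.019 to 0.085 (limma adjusted p = 0.312). The ratio of *Slc38a2* to *Slc38a1* was 1.39 ± 0.0574 and 1.35 ± 0.0505 (SD, n = 4 each; exact two-sided permutation test, p = 0.4, and p = 0.6 adjusted over the 3 ratios).

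Neither of the neutral amino acid exchangers, which carry serine, passed the test. *Slc1a5* (ASCT2, chromosome 7, 16781340 to 16798274) had 866.4, 826.5, 869.3 and 942.6 normalized counts in *Phgdh* fl/fl TEMs and 884.4, 873.0, 800.1 and 936.6 in PHGDH-deficient TEMs. The ranges overlapped over most of their length, and the log2 fold change was -0.0052 with a 95% interval from -0.11 to 0.10 (limma adjusted p = 0.948). *Slc1a4* (ASCT1, chromosome 11, 20302180 to 20332713) had 36.3, 34.1, 41.3 and 53.4 normalized counts in controls and 48.4, 40.5, 37.6 and 43.8 in PHGDH-deficient TEMs. With between 37 and 56 reads per library its interval was wide, from -0.32 to 0.44 around a log2 fold change of 0.059 (limma adjusted p = 0.828), so that a change of the size seen for *Slc7a1* was not detectable at this depth. The ratio of *Slc1a5* to *Slc1a4* was 21.7 ± 3.07 and 20.6 ± 1.57 (SD, n = 4 each; exact two-sided permutation test, p = 0.629, and 0.629 adjusted over the 3 ratios).

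At the lysosome, *Slc38a9* (chromosome 13, 112660751 to 112738749) lay between 1531 and 1593 normalized counts in *Phgdh* fl/fl TEMs and between 1586 and 1688 in PHGDH-deficient TEMs. The ranges overlapped at their ends, and the log2 fold change of 0.062 had a 95% interval from -0.0058 to 0.13 (limma adjusted p = 0.137). Its exons share 182 bases with a gene on the other strand.

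The taurine transporter *Slc6a6* (ENSMUSG00000030096, chromosome 6, 91684053 to 91759066, plus strand) was the most abundant of the 10 genes, above 99.5% of all tested genes in mean normalized count. It had 48890, 46471, 45991 and 45545 normalized counts in *Phgdh* fl/fl TEMs and 50551, 50601, 51213 and 49160 in PHGDH-deficient TEMs. The highest control and the lowest PHGDH-deficient library were close, and the groups did not overlap. *Slc6a6* rose by 0.11 on the log2 scale with a standard error of 0.024 (limma adjusted p = 0.000947), a ratio of the means of 1.08. The log2 fold change was 0.079 within replicates 1 and 4 and 0.14 within replicates 2 and 3, and the adjusted p was at most 0.00581 with each library left out in turn. Its exons share 117 bases with a gene on the other strand.

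Other carriers and enzymes of taurine and organic osmolytes were read beside it. Of the 12 tested genes of this list, 6 rose and 2 fell, beside the 41% called in the whole table, with a median log2 fold change of 0.18. Like *Slc6a6*, its relatives *Slc6a12*, the betaine and GABA carrier BGT1, and *Slc6a13*, a GABA carrier that also takes taurine, rose, from 1560 ± 100.1 to 2351 ± 61.9 (log2 fold change 0.59, limma adjusted p = 1.7e-10) and from 341 ± 25.8 to 427 ± 9.14 normalized counts (0.33, limma adjusted p = 0.000266; SD, n = 4 each). *Nfat5*, the transcription factor of the response to hypertonicity, rose from 4819 ± 515 to 6123 ± 73.9 (log2 fold change 0.35, limma adjusted p = 3.3e-06). Also higher were *Lrrc8b*, a subunit of volume-regulated anion channels (0.23, limma adjusted p = 0.000545), *Slc5a3*, the *myo*-inositol carrier (0.23, limma adjusted p = 0.000956), and *Ado*, which makes hypotaurine from cysteamine (0.14, limma adjusted p = 0.000206). Other subunits of these channels did not pass, namely *Lrrc8d* (0.037, limma adjusted p = 0.311), *Lrrc8c* (0.069, limma adjusted p = 0.18) and *Lrrc8a* (-0.19, limma adjusted p = 0.0515). *Lrrc8a* went the other way from *Lrrc8b*, and it passed as lower in some of the other settings run. The genes that fell were *Akr1b3*, which makes the osmolyte sorbitol (-0.13, limma adjusted p = 0.0011), and *Csad*, which makes hypotaurine from cysteine sulfinic acid (-0.25, limma adjusted p = 0.0241, with the call lost without replicate 1 and without replicate 4 of the controls and 0.0934 the highest adjusted p). *Slc5a3*, *Akr1b3*, *Csad*, *Lrrc8a* and *Lrrc8c* fall outside the rule for named genes and were chosen with their values known.

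**Figure D3:**
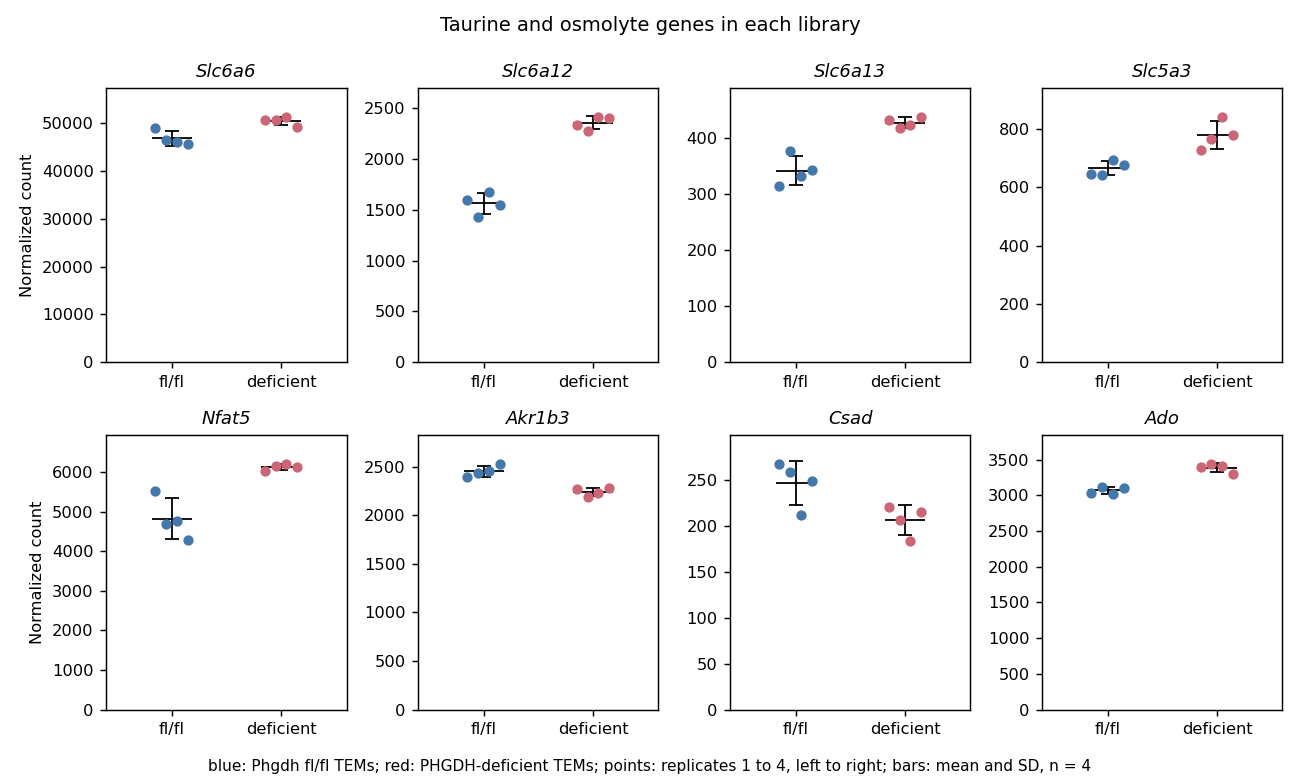
Normalized count (vertical axis of each panel, from 0) of *Slc6a6* and 7 other taurine and osmolyte genes in the 4 libraries of *Phgdh* fl/fl TEMs (blue) and of PHGDH-deficient TEMs (red), with points in the order of replicates 1 to 4 and bars for the mean and SD. *Slc6a6*, *Slc6a12*, *Slc6a13*, *Slc5a3*, *Nfat5* and *Ado* are higher in each PHGDH-deficient library than in each control, *Akr1b3* is lower in each, and the groups overlap for *Csad*.

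The 10 transporters were also set beside the other amino acid transporters of the SLC families. Of 49 listed, 25 were found by symbol and 21 were tested. Of these 21, 11 rose, beside 20.8% of all tested genes, and 3 fell, beside 20.3%. The median log2 fold change was 0.14, beside -0.0018 over all tested genes. By the rule for named genes these included *Slc7a11*, *Slc6a9*, the glycine carrier GLYT1, from 324 ± 11.3 to 478 ± 33.9 normalized counts (SD, n = 4 each, log2 fold change 0.56, limma adjusted p = 3.9e-07), and *Slc15a2*, a peptide carrier. *Slc15a2* was between 0 and 1.86 normalized counts in controls and between 102.9 and 115.7 in PHGDH-deficient TEMs. *Slc6a20b*, a proline carrier relative on chromosome 9 as is *Cx3cr1*, was between 13.0 and 33.1 against 2.92 and 7.27 (limma adjusted p = 0.000441). *Slc6a20b* lies at 123590800 to 123632565, and *Cx3cr1*, the site of the Cre allele, at 119901616 to 120069879. Between them and closer to *Cx3cr1* lies the mitochondrial carrier *Slc25a38*, at 120110374 to 120124504. It did not pass (log2 fold change 0.058, limma adjusted p = 0.442), and its groups overlapped. *Slc25a38* falls outside the rule for named genes and was added with its values known. A part of the position of *Slc6a20b* in its difference was not tested. The most abundant of this list were *Slc43a2* (LAT4), a carrier of large neutral amino acids (log2 fold change 0.14, limma adjusted p = 3.5e-05), *Slc15a3*, a lysosomal peptide and histidine carrier (0.24, limma adjusted p = 4.8e-05), and *Slc38a10* (-0.056, limma adjusted p = 0.063). The largest absolute log2 fold change among the 10 transporters, that of *Slc7a5*, was smaller than those of *Slc7a11*, *Slc6a9* and *Slc6a20b*, and a difference between genes was not tested. With only genes of a mean of at least 100 tested, 12 of 17 genes of this list were called, beside 5281 of 10515 over the whole table.

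**Figure D4:**
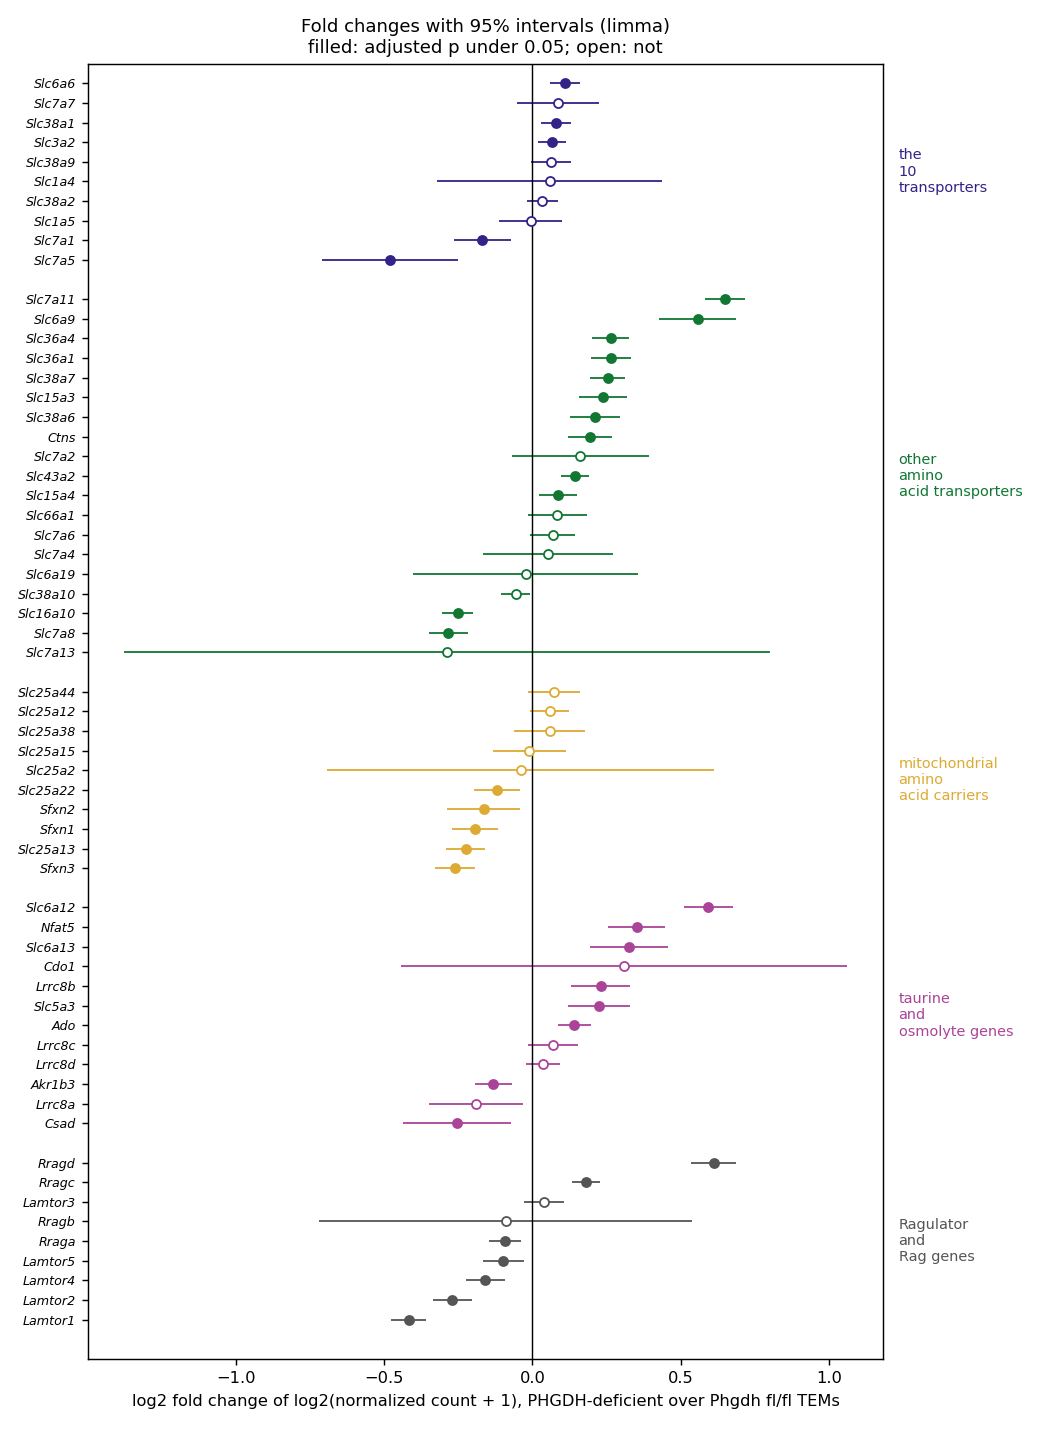
Log2 fold change of PHGDH-deficient over *Phgdh* fl/fl TEMs with 95% intervals from limma (horizontal axis, on the log2(normalized count + 1) scale) for the tested genes of 5 lists, without *Slc15a2* and *Slc6a20b*, which lie off this scale. Filled points have an adjusted p under 0.05, and among the 10 transporters these are *Slc6a6*, *Slc38a1* and *Slc3a2* to the right of 0 and *Slc7a1* and *Slc7a5* to the left.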

How the data were processed

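RNA-seq covered 4 *Phgdh* fl/fl and 4 *Phgdh* fl/fl *Cx3cr1*-Cre samples, grouped by the submitters' labels. The authors mapped single-end reads to mm10 with TopHat2 and assigned them to genes with HTSeq 0.6 (the submitters' processing notes). The deposited sample values are a signal, each library's reads per gene over its own size factor, although described as FPKM. Whole reads were recovered for 100% of the 144353 values above 0 (within 0.01 of a read). The authors' own fold changes and p-values in the table were not used. Totals were 38219563 to 47027420 reads per library. The precision of genes with few reads is set by counting.

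The comparison used limma 3.58.1 under R 4.3.3 (eBayes with trend, two-sided, Benjamini-Hochberg over 13629 genes, no covariate) on log2(normalized count + 1). DESeq2 1.42.0 and edgeR 4.0.16 (quasi-likelihood, TMM) were run on the recovered reads, where edgeR called 5608 genes and DESeq2 5066, against 5594 by limma. Further alternatives were a pseudocount of 0.1, no filter, a mean of at least 100, quantile normalization, scaling to total reads, a replicate block, replicates 1 and 4 against 2 and 3 as a covariate, and leaving out each library. Single ratios were tested by exact permutation in scipy 1.17.1. Positions and exon lengths came from GENCODE M21, found for 18629 of the 18635 genes. On simulated counts for 13629 genes in this comparison, 197 of 200 changed genes were called by limma and 8 unchanged ones. The changed genes were drawn among those with a mean of at least 100. The spread between simulated replicates was a fixed setting, not fitted to these libraries, and no structure among replicates was simulated. These counts are therefore not error rates of the real comparison. Whether differences as small as those of *Slc3a2*, *Slc38a1*, *Slc6a6* and *Slc7a1* would be recovered was not tested.

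The transporters and gene lists were chosen with earlier results of these data known. The genes named are the 10 transporters, *Phgdh* and *Cx3cr1* and, from each other list, up to 4 genes with the largest absolute log2 fold change among those with an adjusted p under 0.05 and groups that do not overlap, and the 3 of highest mean. The labels name no batch, and replicates are biological samples by the series' description.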

Additional observations from a re-analysis of the deposited data

Results flagged for a closer look

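A library far from the other 3 of its group (by Dixon's test at the 95% level) was found in 6 of the 76 groups of 4 values screened, where chance gives about 1 in 20. In *Phgdh* fl/fl TEMs these were *Slc7a7* in replicate 2, at 503.5 normalized counts against 415.5 to 428.4 in the other 3, *Sfxn1* in replicate 3, at 1294 normalized counts, *Lrrc8b* in replicate 1, at 1141 normalized counts, and *Rraga* in replicate 1, at 4251 normalized counts. In PHGDH-deficient TEMs they were the ratio of *Slc1a5* to *Slc1a4* in replicate 1, at 18.28, and the ratio of *Slc38a2* to *Slc38a1* in replicate 2, at 1.273. Without *Phgdh* fl/fl replicate 2 the log2 fold change of *Slc7a7* was 0.15 (limma adjusted p = 0.0661), against 0.086 with all libraries.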

How the results depend on the processing

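Of the 10 transporters, 5 were called under each of the 9 alternatives other than leaving out a library, except quantile normalization (4, without *Slc38a1*). With each library left out in turn between 3 and 5 were called, the lowest count being without *Phgdh* fl/fl replicate 3. *Slc6a6*, *Slc7a5* and *Slc7a1* passed in every setting run. The log2 fold change of *Slc1a5* turned to 0.0099 with scaling to total reads and lay between -0.039 and 0.036 with each library left out, and that of *Slc1a4* between -0.024 and 0.19, neither passing the test in any setting. That of *Slc1a4* was 0.00032 with quantile normalization. Leaving out each library gave between 3 and 5 mitochondrial amino acid carriers (3 without PHGDH-deficient replicate 3), 13 to 14 other amino acid transporters, 7 to 9 taurine and osmolyte genes, 6 to 7 Ragulator and Rag genes and 4966 to 5917 genes over the whole table. The ratio of *Slc7a5* to *Slc7a7* stayed between -0.65 and -0.51 on the log2 scale, with 4 libraries against 3 unable to give an exact p below 0.0571. With the replicate number as a block, 5597 genes and the same number of transporters, 5, were called. Same-numbered samples correlated in their deviations by 0.0628, 0.0977, 0.126 and 0.0776. Replicate 1 of the controls correlated more with replicate 4 of the PHGDH-deficient samples (0.135), so that the numbers were not taken to pair the samples. A structure shared by the genotypes was seen. Replicates 1 and 4 correlated with each other across genotypes by 0.0628 to 0.135, and replicates 2 and 3 by 0.0484 to 0.126. Between these sets the correlations were negative, from -0.124 to -0.0356. Deviations were taken from the mean of each genotype and cancel within it. Positive correlations for some pairs therefore force negative ones for others, and the negative signs add no separate evidence. The second principal component (13.2% of the variance) also set replicates 1 and 4 apart from 2 and 3 in both genotypes. Its source was not tested. *Slc38a10* passed with quantile normalization (adjusted p = 0.0282) and without PHGDH-deficient replicate 2 (0.0436). *Slc1a4* had between 37 and 56 reads per library, the fewest of the 10.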

Other observations

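Among 10 tested carriers that move amino acids across the inner mitochondrial membrane, 5 fell and the other 5 did not pass at a limma adjusted p under 0.05. Of all tested genes 41% were called in either direction, near the share in this list, and 20.3% were lower. The median over the list was -0.079 on the log2 scale, beside -0.0018 over all tested genes. *Sfxn1*, the mitochondrial serine carrier, had 1364 ± 46.8 normalized counts in *Phgdh* fl/fl TEMs and 1193 ± 28.7 in PHGDH-deficient TEMs (SD over 4 libraries), a difference of -0.19 on the log2 scale (limma adjusted p = 0.000246). Its relative *Sfxn3* changed by -0.26 (limma adjusted p = 1.7e-06) and *Sfxn2* by -0.16 (limma adjusted p = 0.0298, 0.0674 with DESeq2, and 0.0502 to 0.0899 without replicates 1, 3 or 4 of the controls or 3 or 4 of the PHGDH-deficient TEMs). The aspartate and glutamate carrier *Slc25a13* changed by -0.22 (limma adjusted p = 8.1e-06), and its paralog *Slc25a12* did not pass (0.059, limma adjusted p = 0.153).

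The Ragulator and Rag proteins, with which *Slc38a9* acts at the lysosome, differed in direction among themselves. Of 9 genes tested, 5 fell and 2 rose at a limma adjusted p under 0.05, beside 20.3% lower and 20.8% higher among all tested genes. With only genes of a mean of at least 100 tested, 7 of 8 were called, beside 5281 of 10515 over the whole table. The median over the list was -0.092 on the log2 scale. *Lamtor1*, which anchors the Ragulator complex, fell by 0.42 on the log2 scale (limma adjusted p = 2.3e-10), and *Lamtor2* fell by 0.27 (limma adjusted p = 6.4e-07). *Rragd* had 1195 ± 35.5 normalized counts in controls and 1825 ± 60.1 in PHGDH-deficient TEMs (SD over 4 libraries) and rose by 0.61 on the log2 scale (limma adjusted p = 2.2e-11) and *Rragc* by a log2 fold change of 0.18 (limma adjusted p = 1.8e-06). *Rraga* fell by 0.092 (limma adjusted p = 0.00692).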
